A study of Mus musculus with 8 samples.

Results

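Cluster 5 of the authors' deposited annotation holds the nuclei between dividing progenitors and young neurons in the embryonic mouse cortex. Its members are all nuclei with that cluster number in each sample: 7826 of 67319 nuclei, or 11.6%, with 3831 from wildtype and 3995 from knockout samples. The tissue is the dorsal telencephalon, the part of the embryonic forebrain that forms the cerebral cortex, at E15.5, a day of embryonic life when upper-layer neurons are being made. The 4 wildtype and the 4 Pantr2 knockout samples are all labelled C57BL/6J, with no treatment named, and the protocol writes the knockout as Pantr2-/-. Pantr2 is a long noncoding RNA gene. How the allele was made and how many embryos went into a sample are not given in the sources used here. Pantr2 itself was not analysed here, so each genotype rests on its label.

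In the developing cortex, apical progenitors line the ventricle and divide there. Many of their daughters become intermediate progenitors, which switch on the T-box factor gene Eomes, divide once or a few times away from the ventricle and give rise to excitatory neurons. The newborn neurons turn on Unc5d, pause as multipolar cells and then migrate outward to the cortical plate.

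Values are counts of unique molecular identifiers (UMIs), each standing for 1 captured transcript molecule, from single nuclei captured with a droplet method. They were summed over the cluster 5 nuclei of each sample and scaled by the sample total to CPM, the usual counts-per-million unit. The wildtype samples held 1140, 929, 660 and 1102 such nuclei and the knockout samples 853, 1584, 945 and 613, with 1714595 to 4246368 UMIs and a median of 2107 to 2727 UMIs per nucleus. Only 3 cell barcodes in the cluster occurred in more than 1 sample. The labels do not say whether a sample is 1 embryo, so p-values measure only the spread between these samples. Any 2 samples of a group differed by 2.01 to 6.36 times the sampling noise (chi-square per degree of freedom over genes). Separate draws of nuclei from 1 source can also exceed this noise, so samples sharing a source were not excluded. Each sample was counted as 1 replicate. Xist gave 0 UMIs in cluster 5 of wildtype replicate 4 and knockout replicates 1 and 4, which held 867 to 1390 UMIs of 4 Y chromosome genes. The other 5 samples held 7 to 19 Xist UMIs and 1 to 7 UMIs of those genes.

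The identity of the cluster is given as a description, with no test, because the clusters were made from these genes. Folds between clusters were taken after adding 1 CPM to each level. In the wildtype samples all 5 genes that mark the cluster were at their highest level there. Eomes, the intermediate progenitor factor, stood at 85.5 ± 24.2 CPM (mean ± SD, n = 4), 3.08 times the level in cluster 4, the highest of the other 6 clusters. Unc5d, a netrin receptor of newborn neurons, stood at 7089 ± 540 CPM, 2.34 times its level in cluster 1. Slc17a6, a vesicular glutamate transporter, stood at 532.7 ± 45.4 CPM, 3.03 times cluster 1. Mfap4, which encodes a matrix-associated protein, stood at 192 ± 46.2 CPM, 3.52 times cluster 4. Neurog2, a proneural factor, was less set apart, with 103 ± 28.8 CPM against 69.7 CPM in cluster 4. Of the clusters used for comparison, cluster 4 had the highest levels of the apical progenitor genes Pax6, Hes5 and Vim, cluster 1 of the upper-layer gene Cux1, and cluster 3 of the deep-layer gene Sox5.

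**Figure D1:**
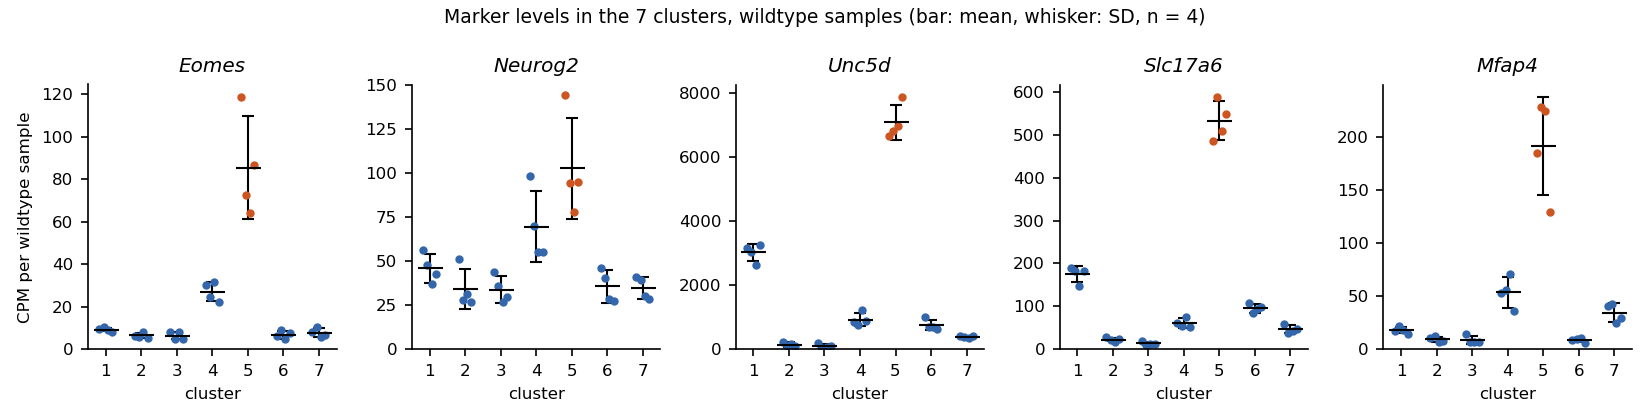
Level of the 5 marker genes (y axis, CPM) in each of the 7 clusters (x axis) in the wildtype samples, with 1 point per sample, the mean as a bar and the SD as a whisker. Cluster 5, in orange, has the highest mean for each gene, from 85.5 CPM for Eomes to 7089 CPM for Unc5d, and the points of clusters 4 and 5 overlap for Neurog2.

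Of 13 intermediate progenitor genes in the table, 10 were at their highest in cluster 5. Mfng, a modifier of Notch receptors, reached 122 CPM against at most 35.2 CPM elsewhere, and Elavl2, an RNA-binding protein gene, 1712 against 906 CPM. Of 18 newborn neuron genes, 7 were highest there, among them Rnd2, which encodes a small GTPase needed for radial migration, at 94.4 ± 13.9 CPM. None of 15 apical progenitor genes was: Pax6 stood at 24.8 CPM, between 62.1 CPM in cluster 4 and a median of 6.48 CPM over the other clusters. Of 35 genes of synapses and excitability, the median lay at 0.506 times that of the other clusters, and of 11 deep-layer genes at 0.849 times. The 10 genes that lead the cluster by their fold over the median of the others were Gm29260, Sox6, Tac2, Lama2, Mfap4, Abca1, Gm33460, Eya4, Unc5d and Gli3. Of these, 6 were highest in cluster 5. Gm29260, Sox6, Eya4 and Gli3 were higher still in cluster 4, where Gli3, a hedgehog pathway factor, stood at 1629 CPM against 220.4 CPM.

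With every nucleus randomly reduced to 1400 UMIs, 9.80% ± 2.51 of wildtype cluster 5 nuclei held an Eomes UMI, against 17.1% without that step. At the level of Eomes in the cluster most nuclei of this depth would hold no Eomes UMI, so the share is not that of nuclei expressing the gene. In cluster 3, where Sox5 is highest and Eomes should be lacking, the reduced share was 1.04%, at a median of 3089 UMIs per nucleus against 2218 in cluster 5. Unc5d was found in 93.2% ± 1.23 of the reduced cluster 5 nuclei, against 7.48% in cluster 3. Slc17a6 was found in 47.2% and Mfap4 in 20.1%.

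Division genes were low. Top2a, a topoisomerase of dividing cells, was found in 3.54% of the reduced nuclei of cluster 5, against 36.6% in cluster 4 and 3.59% in cluster 1. Mki67, the proliferation marker, was found in 2.62%, against 14.6% in cluster 4 and 1.89% in cluster 1. The deposited cell cycle angle, which places each nucleus on a circle through G1/G0, S and G2/M, put 24.3% ± 2.51 of wildtype cluster 5 nuclei in its S to M range. Since the angle is computed from expression, values by angle are a description. The G1/G0 range is taken as the part of the circle within 0.25 pi of 0, and the S to M range runs from 0.5 pi to its return to G1/G0. In wildtype replicate 1, the S and G2/M parts held 143 and 151 of 1237 cluster 3 nuclei, and 130 and 130 of 1140 in cluster 5. In wildtype replicate 3 they held 158 and 183 of 1727, and 102 and 69 of 660. The share is thus not read as that of dividing nuclei. Cenpf, a mitotic gene, was higher in the S to M than in the G1/G0 range in 8 of 8 samples, with wildtype means of 50.2 and 15.7 CPM. Nrxn3, a synaptic adhesion gene, was higher there in 8 of 8 as well, 427 against 184 CPM. Over all genes, 204 of 14075 were higher there in 8 of 8 samples and 351 were lower. Eomes was higher at the S to M range in 8 of 8 samples by a small margin, 92.0 against 79.4 CPM in wildtype. Unc5d was lower there in 8 of 8, 6221 against 7835 CPM.

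Knockout was then compared with wildtype in the summed counts of cluster 5. A gene counts as called, and is said to have risen or fallen, where edgeR (quasi-likelihood) gave it an adjusted p under 0.05. Of 10595 genes tested, 188 were called (1.77%), 92 higher (0.868%) and 96 lower (0.906%) in the knockout samples. The count was 101 without wildtype replicate 4, 115 without knockout replicate 2 and 121 without wildtype replicate 1. At an unadjusted p under 0.05, edgeR gave 1054 of the 10595 genes, or 9.95%. Fewer nuclei of a kind and less RNA per nucleus cannot be told apart in such sums.

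The 5 marker genes gave 0 calls in edgeR, and at an unadjusted p under 0.05 there were 0 too. Unc5d lay at 6564, 6785, 7078 and 7855 CPM in the wildtype samples and at 5091, 6860.0, 7118 and 5907 CPM in the knockout samples, which overlapped, with a log2 fold change of -0.18 ± 0.10 (SE). Slc17a6 differed by 0.06 ± 0.09, Eomes by -0.09 ± 0.15, Neurog2 by 0.02 ± 0.18 and Mfap4 by 0.25 ± 0.15 on the log2 scale. A small change of Eomes or Neurog2 was not detectable with these errors. Over 13 intermediate progenitor genes, 12 were tested and 1 rose, against 0.868% of all genes. Tmem178, a transmembrane protein gene, rose from 294 ± 22.6 to 361 ± 7.97 CPM (edgeR, adjusted p = 0.0487). Its call was lost under 10 of 15 alternatives, where the p reached 0.159. The list's median log2 fold change was 0.06, against -0.0027 over all genes tested.

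Of the 10 leading genes of the cluster, 3 fell, against 0.906% of all genes tested. These genes were picked for high levels in the same wildtype samples, which favours falls, so the count is a description. Gm29260, a long noncoding RNA gene (chromosome 1, 41781808 to 41939560), lay at 879 to 1282 CPM in the wildtype and at 587 to 826 CPM in the knockout samples, which did not overlap (edgeR, adjusted p = 0.0329), and lost its call under 4 of 15 alternatives. Lama2, a laminin chain gene, fell from 122 ± 30.1 to 59.0 ± 13.5 CPM, a difference of -1.09 ± 0.18 in log2 units (edgeR, adjusted p = 0.00590). Abca1, a cholesterol transporter gene, fell from 87.2 ± 16.7 to 51.3 ± 10.1 CPM, and was not called without wildtype replicate 1 or 4. Because these genes define the cluster, its share of all nuclei was not compared between genotypes. Wildtype shares ran from 8.12% to 13.9% and knockout shares from 8.42% to 14.5%.

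The deep-layer list held the most called genes of the lists examined. Its members direct or mark neurons of the deep cortical layers, and 2 of 11, Nfia and Nfib, were at their highest in cluster 5 among wildtype clusters. Of 11 members, all tested, 4 rose and 0 fell, against 0.868% of all genes that rose. The list was chosen with earlier results of these data known, so its counts are a description and no independent support. The list's median log2 fold change was 0.44, and 10 of 11 were positive, against 5227 of 10595 genes. In 6 of 11 every knockout sample lay above every wildtype sample, as in 3.07% of all genes, while groups apart in either direction made up 6.19%. The summed level was 10897 to 12079 CPM in the wildtype and 13949 to 15543 CPM in the knockout samples. Nfia and Nfib made up most of that sum, so it says little about the other members.

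Nfia and Nfib encode nuclear factor I proteins, which act in progenitor differentiation and in deep-layer neurons. Nfia (ENSMUSG00000028565; chromosome 4, 97772734 to 98118874, GRCm38) lay at 3020.4, 3363, 3418 and 2878 CPM in the wildtype samples and at 4195, 4422, 4544 and 3993 CPM in the knockout samples. The groups did not overlap, and the rise was 1.35-fold, or 0.44 ± 0.07 in log2 units (edgeR, adjusted p = 0.00663). Nfib (ENSMUSG00000008575; chromosome 4, 82290173 to 82705750) lay at 4867 to 5543 CPM in the wildtype and at 6086 to 7001 CPM in the knockout samples, a difference of 0.35 ± 0.07 in log2 units (edgeR, adjusted p = 0.0194). For both genes all knockout samples lay above all wildtype samples, and replicate 4 was the lowest of the knockout samples.

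Sox5 and Bcl11b are factors of corticofugal neurons, whose axons leave the cortex. Sox5 (ENSMUSG00000041540; chromosome 6, 143828425 to 144781977) lay at 1182, 1039, 1176 and 1115 CPM in the wildtype samples and at 2016, 1447, 1398 and 1659.9 CPM in the knockout samples. All knockout samples were higher, replicate 1 most, by 0.53 ± 0.10 in log2 units over the group (edgeR, adjusted p = 0.0166). Bcl11b (ENSMUSG00000048251; chromosome 12, 107910403 to 108003602) lay at 295 to 411 CPM and at 420.5 to 530.4 CPM, a difference of 0.45 ± 0.10 in log2 units (edgeR, adjusted p = 0.0389). Its call was lost under 9 of 15 alternatives, where the p reached 0.127, while Nfia kept its call under all 15. Sox5 lost its call without wildtype replicate 2 or 4, and Nfib under 5 of 15. These calls were not particular to cluster 5. Of the other 6 clusters, Nfia and Nfib were each called in 5, Sox5 in 4 and Bcl11b in 2.

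**Figure D2:**
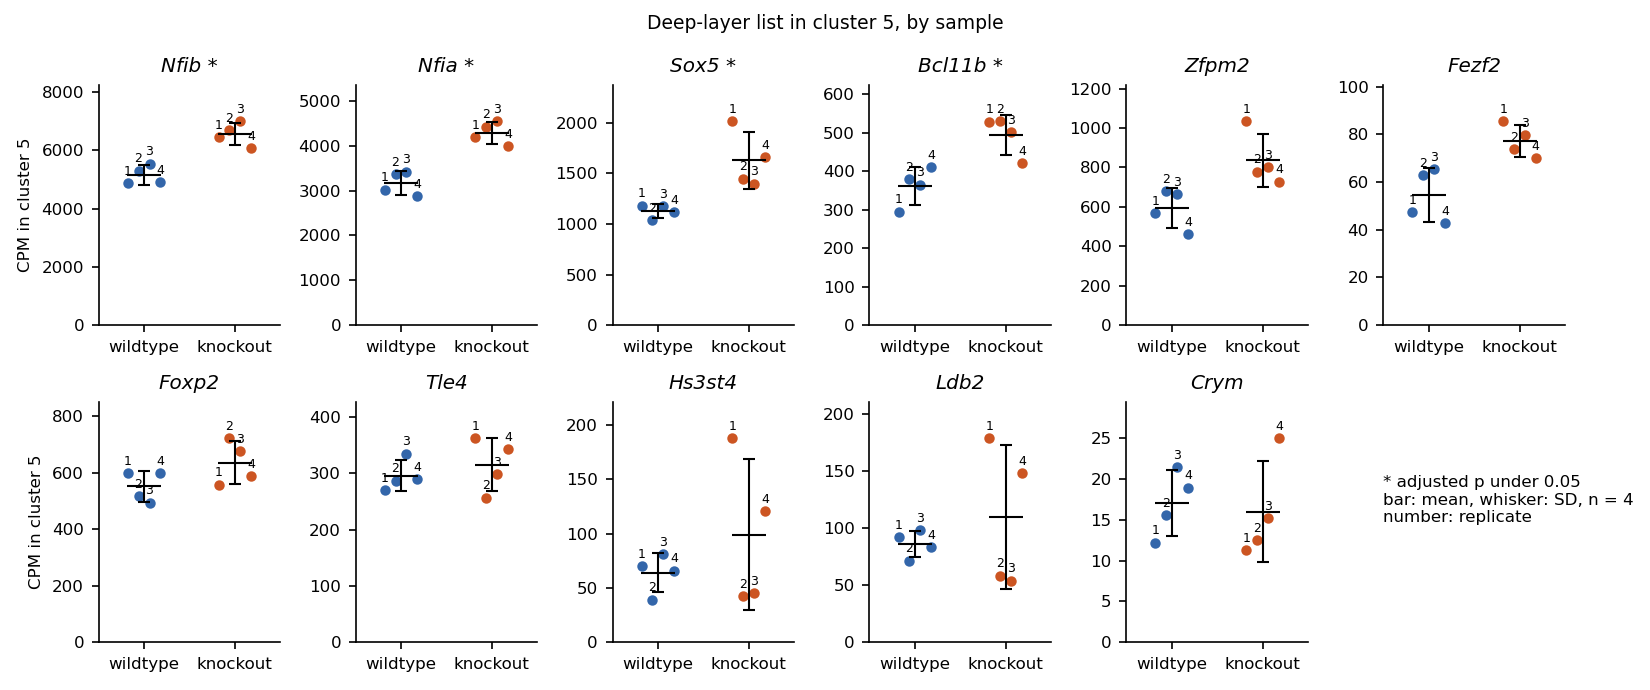
Level in cluster 5 (y axis, CPM) of the 11 deep-layer genes in the wildtype (blue) and knockout (orange) samples, numbered by replicate, with mean and SD. Nfib, Nfia, Sox5 and Bcl11b, marked with a star, passed the test, and Hs3st4 and Ldb2 are high in knockout replicates 1 and 4 only.

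Fezf2, the selector gene of subcerebral neurons, and Zfpm2 did not overlap between the groups, with log2 fold changes of 0.52 ± 0.13 and 0.50 ± 0.13 and edgeR-adjusted p-values of 0.0773 and 0.0804. Zfpm2 was called higher under 4 of 15 alternatives and Fezf2 under 2. Hs3st4, a marker of layer 6, lay at 188 and 121 CPM in knockout replicates 1 and 4 but at 42.7 and 45.5 CPM in replicates 2 and 3, with 39.3 to 81.2 CPM in the wildtype samples. Ldb2, a marker of layer 5, lay at 178 and 148 CPM against 58.5 and 53.9 CPM, with 71.6 to 98.1 CPM in the wildtype samples. These are the knockout samples without Xist UMIs, and 19.0% and 17.0% of their cluster 5 nuclei had a hybrid doublet score above 0.25, against 10.7% to 12.5% in the other 6 samples. Without nuclei above that score the list again held 4 genes that rose, with Zfpm2 in place of Bcl11b and a median of 0.34. In an added fit of the 5 samples with Xist UMIs, chosen after seeing the data, Bcl11b, Sox5, Nfia, Nfib and Foxp2 rose and Ldb2 fell. Leaving out 1 sample at a time gave between 1 and 4 members that rose. The lowest count was without wildtype replicate 2, where Nfia alone was called.

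Of 8 upper-layer genes tested, 0 were called by edgeR, and the list's median was -0.16. Of the 8, 4 had an unadjusted p under 0.05, against 9.95% of all genes. Cux1, a factor of upper-layer neurons and their progenitors, lay at 381 to 403 CPM in the wildtype and at 271 to 342 CPM in the knockout samples (edgeR, adjusted p = 0.0868). Cux1 and Pou3f1, 2 of 8, lay lower in every knockout sample, against 3.12% of all genes. A replicate block called Cux2 lower and the Xist covariate called Pou3f1 lower.

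Among the 17 newborn neuron genes tested, Neurod6 rose and Sema3c fell, where 0.868% of all genes rose and 0.906% fell. Neurod6 (ENSMUSG00000037984; chromosome 6, 55677822 to 55681263), a neuronal differentiation factor gene, lay at 316, 361, 351 and 357 CPM in the wildtype and at 453, 459, 459 and 439 CPM in the knockout samples. The difference was 0.39 ± 0.07 in log2 units (edgeR, adjusted p = 0.00700). Sema3c (ENSMUSG00000028780; chromosome 5, 17574281 to 17730268) encodes a secreted semaphorin, a guidance cue sensed through neuropilins. It lay at 172, 182, 172 and 217 CPM in the wildtype and at 111, 125, 107 and 132 CPM in the knockout samples, a difference of -0.65 ± 0.10 in log2 units (edgeR, adjusted p = 0.00272). For neither gene did the groups overlap (3.12% of all genes lay lower in every knockout sample), and both calls held under all 15 alternatives. Rnd2 lay at 76.1 to 104 CPM and at 103 to 161 CPM (edgeR, adjusted p = 0.0525), and it was called higher under 5 of 15 alternatives.

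The promoters of Nfia and Sema3c are shown because these genes held their calls in opposite directions and each window holds 1 copy of CAGATG, an E-box that proneural factors such as Neurog2 bind. The sequences are the 250 bases before a RefSeq start on GRCm38.p6, 5′ to 3′ on the gene's strand, chr4:97581693-97581942 (plus) and chr5:17574566-17574815 (plus), with the E-box in either orientation in capitals. The Nfia window lies upstream of the GENCODE interval given above and does not adjoin it, and the Sema3c window lies inside that gene's interval.
Nfia: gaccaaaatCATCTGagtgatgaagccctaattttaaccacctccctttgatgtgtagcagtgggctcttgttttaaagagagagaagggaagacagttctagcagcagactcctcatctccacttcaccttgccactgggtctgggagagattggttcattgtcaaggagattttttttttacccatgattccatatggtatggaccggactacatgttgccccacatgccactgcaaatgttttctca
Sema3c: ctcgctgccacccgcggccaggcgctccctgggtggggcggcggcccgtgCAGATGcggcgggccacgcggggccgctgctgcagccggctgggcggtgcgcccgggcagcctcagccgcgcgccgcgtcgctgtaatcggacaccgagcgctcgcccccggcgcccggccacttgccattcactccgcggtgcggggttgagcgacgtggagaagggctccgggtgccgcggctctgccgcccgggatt
CAGATG, on either strand, is present in 14.4% of all 32851 promoter windows of this length. The others searched on both strands were CAGCTG, a second E-box, in 13.0% of windows, and the palindromic nuclear factor I site, in 0.0365%. The windows of Eomes, Neurog2, Sox5, Bcl11b, Neurod6, Reln and Cdk6, and both of Tcf7l2, held none of these. Nor did they hold AGGTGTGA, the T-box site, which is present in 1.12% of windows. The second of 2 windows of Slc17a6, a marker not called between genotypes, held 1 copy of CAGATG as well, and its first held no site. Of 16 genes looked up, 11 had an entry.

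Cell cycle exit genes gave 1 call in each direction among 18 tested, against 0.868% of all genes higher and 0.906% lower. Cdkn1c, which encodes the cyclin-dependent kinase inhibitor p57, lay at 34.9 to 42.7 CPM in the wildtype and at 53.4 to 60.2 CPM in the knockout samples. It rose 1.49-fold, or 0.58 ± 0.10 in log2 units (edgeR, adjusted p = 0.00795), and held under all 15 alternatives. Cdk6, a G1 kinase gene, lay at 105 to 152 CPM and at 91.6 to 104 CPM, a log2 fold change of -0.48 ± 0.11 whose call was lost under 8 of 15. Of 36 S-phase genes tested none was called, with 4 at an unadjusted p under 0.05, against 9.95% of all genes. Of 42 G2/M genes, only Hjurp, a centromere chaperone gene, was called, against 1.77% of all genes. The share of nuclei in the S to M angle range was 22.8%, 26.8%, 25.9% and 21.5% in the wildtype and 29.8%, 27.7%, 25.3% and 25.4% in the knockout samples. The groups overlapped, with means of 24.3% and 27.0% (exact permutation test, two-sided p = 0.171, or 0.343 adjusted over 4 shares). Nuclei with Unc5d and no Eomes UMI made up 84.7% ± 3.06 and 81.1% ± 2.88, with Eomes and no Unc5d UMI 1.25% ± 0.417 and 1.65% ± 0.476, and with both 8.56% ± 2.26 and 9.06% ± 0.694. Their exact permutation p-values were 0.143, 0.286 and 0.743 (0.343, 0.381 and 0.743 adjusted), where 0.0286 is the smallest that 4 against 4 samples allow. Notch genes gave 0 calls among 18 tested by edgeR, 2 with an unadjusted p under 0.05, against 9.95% of all genes. Apical progenitor genes gave 0 among 15, 4 with an unadjusted p under 0.05, against the same 9.95%.

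In the Wnt pathway, 2 of 17 genes tested were called, against 1.77% of all genes. Tcf7l2, a nuclear effector of the pathway, lay at 117, 135, 168 and 123 CPM in the wildtype and at 58.2, 81.1, 93.9 and 83.0 CPM in the knockout samples. It fell by 0.77 ± 0.14 on the log2 scale (edgeR, adjusted p = 0.0105). Rspo3, which encodes a secreted enhancer of Wnt signalling, lay at 35.6 to 44.1 CPM and at 54.3 to 94.9 CPM, a difference of 0.93 ± 0.16 in log2 units (edgeR, adjusted p = 0.00738). Both groups were apart for both genes. Among 37 guidance and adhesion genes tested, 1 rose and 2 fell, against 0.868% and 0.906% of all genes. The netrin receptor gene Dcc rose from 7149 ± 779 to 9115 ± 583 CPM (edgeR, adjusted p = 0.0489), and its call was lost under 9 of 15 alternatives. The cadherin gene Cdh10 fell from 499.9 ± 38.1 to 368 ± 29.5 CPM (edgeR, adjusted p = 0.00926), and Sema3c, which is on this list as well, fell as given above. The 35 synapse and excitability genes gave 0 calls by edgeR, with a list median of -0.05. Of the 35, 10 had an unadjusted p under 0.05, against 9.95% of all genes. The 71 ribosomal protein genes tested gave 0 calls, with 7 at an unadjusted p under 0.05, against the same 9.95%.

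**Figure D3:**
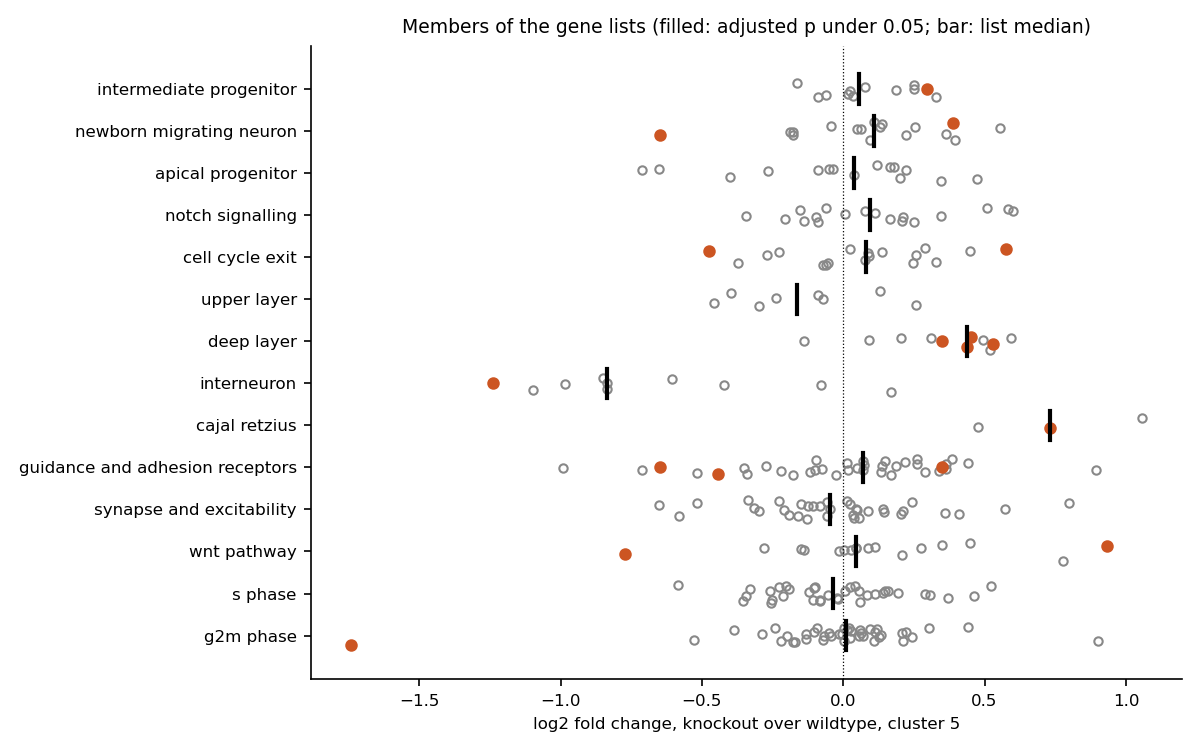
Log2 fold change of knockout over wildtype in cluster 5 (x axis) for the tested members of 14 gene lists (rows). Filled points passed the test, open points did not, and bars mark list medians, which lie at 0.44 for the deep-layer list and at -0.16 for the upper-layer list.

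Markers of other cell types were present in the cluster as well. Reln, the secreted guide of neuronal migration best known from Cajal-Retzius cells, rose from 73.4 ± 14.6 to 121 ± 9.75 CPM, a difference of 0.73 ± 0.13 in log2 units (edgeR, adjusted p = 0.00801). Only 3 of 8 Cajal-Retzius markers could be tested, and the summed level of all 8 was 75.1 to 117 CPM in the wildtype and 134 to 172 CPM in the knockout samples. Reln is 1 of the 8 and makes up most of that sum, whose means were 98.7 and 155 CPM. The sum thus largely repeats the Reln values. The part of these cells in the Reln level was not tested. Interneuron markers were summed to 144 to 258 CPM and 78.2 to 244 CPM. Of 10 tested 9 had negative log2 fold changes, against 5368 of 10595 genes. Dlx5, a homeobox gene of interneurons, fell from 8.73 ± 2.74 to 3.69 ± 0.633 CPM, and the call was lost under 9 of 15 alternatives. Microglia markers summed to at most 12.4 CPM in each sample, and oligodendrocyte precursor markers could not be tested because of their low counts. Hbb-y, the embryonic beta-like globin gene, lay at 2.87 to 6.47 CPM in the wildtype and at 16.1 to 35.5 CPM in the knockout samples and rose 5.76-fold (edgeR, adjusted p = 6.87e-04). The other 4 red cell genes tested had negative log2 fold changes, among them Hbb-bs with 306 ± 98.9 and 219 ± 89.3 CPM, and the summed red cell level was 378 to 677 CPM in the wildtype and 234 to 542 CPM in the knockout samples.

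Several of the largest changes belonged to genes with near-identical copies or with few UMIs. Many were not particular to cluster 5. Among the rises, Gm28438, Tpm3-rs7, Gm6209, Qrfpr, Dnajc22, Gm49450 and 4930578M01Rik were called in all 6 other clusters. So were mt-Nd3, Gm17167, Scrn1, S100a10 and Hjurp among the falls. In contrast, Slc7a11, Nrgn, Chd1l, Stac2 and Shisa9 were each called in 1 other cluster. Gm28438 (chromosome 1, 24612775 to 24613119), a pseudogene of a mitochondrial gene, held 0 UMIs over the wildtype and 2401 over the knockout samples, at least 713-fold higher against 3 UMIs over the group. The mitochondrial gene mt-Nd3 (chromosome M, 9459 to 9806), a subunit of respiratory complex I, lay at 69.2, 166, 165 and 315 CPM in the wildtype and at 1.30, 4.08, 4.63 and 2.97 CPM in the knockout samples. Their transcripts share 345 aligned bases with 1 mismatch, T3C, counted from the first base of mt-Nd3. The first 33 bases of both transcripts are shown, with the mismatch in capitals, because the rest of the aligned bases are the same in both.
mt-Nd3: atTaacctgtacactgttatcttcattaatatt
Gm28438: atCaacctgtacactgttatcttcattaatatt
The sum of both genes was 179 ± 101 CPM in the wildtype and 231 ± 96.0 CPM in the knockout samples, which overlapped (exact permutation test, two-sided p = 0.429). Which of the pair these UMIs came from was not tested. Tpm3-rs7, a copy of the tropomyosin gene Tpm3 with 99.1% identity, rose from 0.476 ± 0.464 to 36.0 ± 3.75 CPM, while Tpm3 fell from 62.8 ± 1.59 to 48.0 ± 3.31 CPM. Their sum lay at 61.4 to 65.1 CPM in the wildtype and at 76.8 to 91.9 CPM in the knockout samples (exact permutation test, two-sided p = 0.0286, the smallest possible).

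Among genes with no such copy, Dnajc22, a DnaJ-family gene (ENSMUSG00000038009; chromosome 15, 99093170 to 99104737), lay at 0.371 to 1.13 CPM in the wildtype and at 32.4 to 38.5 CPM in the knockout samples. The difference was 5.68 ± 0.26 in log2 units (edgeR, adjusted p = 1.95e-08). Also on chromosome 15 lie Gm49450, from 98932137, with 268 against 23.2 CPM, and 4930578M01Rik, from 98983348, with 231 against 48.0 CPM. They have 11 and 12 similar transcripts, and Gm49450 overlaps the tubulin gene Tuba1b on the same strand. Qrfpr, a neuropeptide receptor gene, held 2 UMIs over the wildtype and 142 over the knockout samples, 63.2 times as many per UMI counted (95% exact interval 17.2 to 527, for counting error only). Gm42743, which shares 258 bases with Gm20628 at 100% identity, held 0 and 86 UMIs, at least 25.5-fold higher. Slc7a11, the cystine transporter gene, has 11 similar transcripts and rose from 1.86 ± 1.25 to 9.07 ± 1.51 CPM. Gm6209, which lies upstream of the Slc7a11 start on the same strand of chromosome 3, rose from 0.653 ± 1.08 to 32.5 ± 16.3 CPM. The other genes among the 12 largest rises were Gm11496, with 3 and 85 UMIs, and A430010J10Rik, with 4 and 99 UMIs.

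Of the 12 largest falls, Scrn1 (ENSMUSG00000019124; chromosome 6, 54501173 to 54566489) lay at 95.4, 109, 96.9 and 107 CPM in the wildtype and at 21.3, 22.3, 32.0 and 33.8 CPM in the knockout samples. The difference was -1.94 ± 0.14 in log2 units (edgeR, adjusted p = 1.75e-06), and the gene overlaps Wipf3 on the opposite strand. Hjurp fell from 54.2 ± 2.52 to 16.3 ± 2.65 CPM and has 14 transcripts over 95% identical across 100 bases or more. Egfem1 (chromosome 3, 29082023 to 29691209) fell from 163 ± 29.8 to 52.9 ± 21.7 CPM and S100a10, a calcium-binding protein gene, from 24.9 ± 5.73 to 7.42 ± 1.94 CPM, neither with a similar copy. Shisa9, an AMPA receptor auxiliary subunit gene, lay at 33.2 to 83.2 CPM in the wildtype and at 13.9 to 30.8 CPM in the knockout samples, and Stac2 at 10.8 to 21.2 CPM and 3.47 to 6.31 CPM, neither overlapping. Gm17167, with 22 similar transcripts, fell from 93.4 ± 13.2 to 13.5 ± 2.47 CPM. Mcmdc2, Nrgn, Chd1l and Dok2 fell from levels under 10 CPM. Of these falls, Nrgn lost its call under 4 of 14 alternatives and Dok2 under 7 of 15, and the other 10 of 12 kept theirs.

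**Figure D4:**
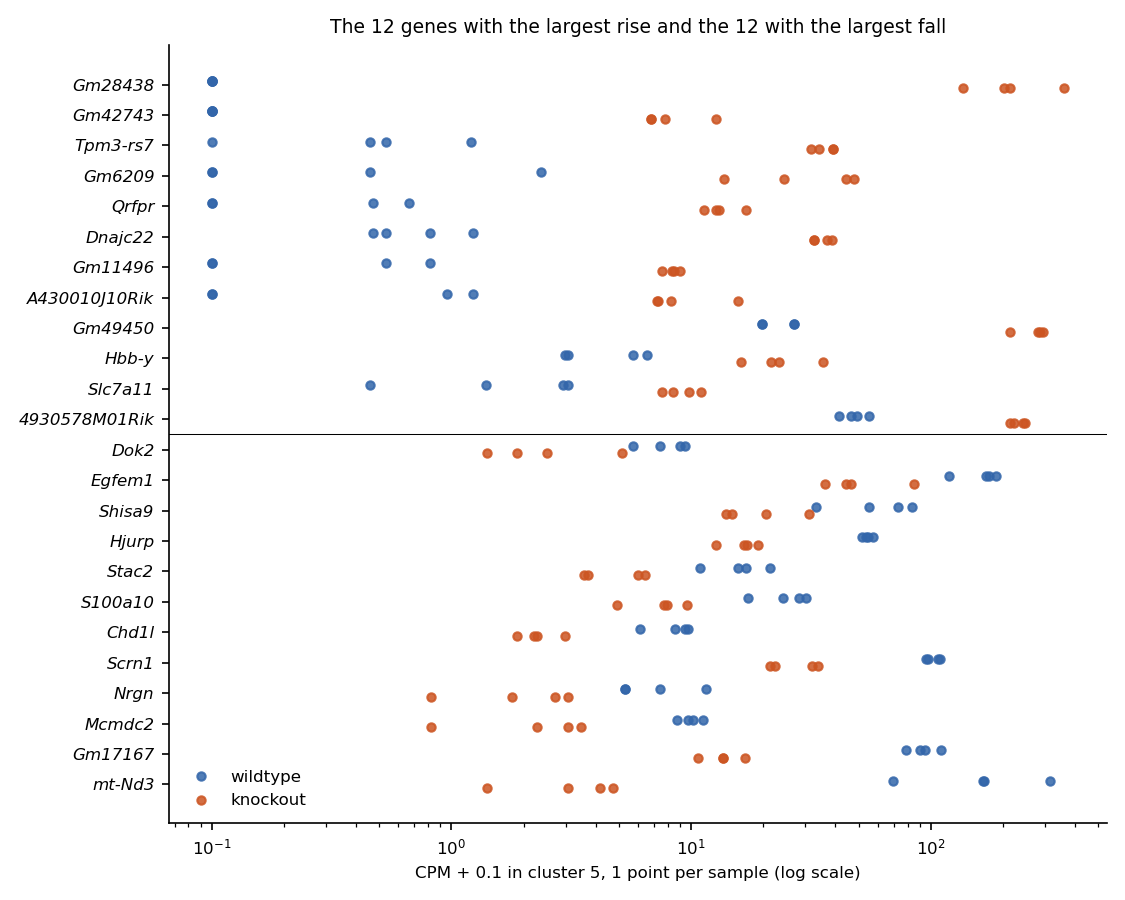
Level in cluster 5 (x axis, CPM + 0.1, log scale) of the 12 genes with the largest rise (upper rows) and the 12 with the largest fall (lower rows), with 1 point per sample, wildtype in blue and knockout in orange. The groups do not overlap in any row, as the rule for naming these genes requires.

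The cluster was then split by the cell cycle angle. In the nuclei of the G1/G0 range 153 of 9450 genes were called (1.62%, with 0.857% higher and 0.762% lower). In those of the S to M range 80 of 8026 were (0.997%, with 0.436% higher and 0.561% lower). Without wildtype replicate 4 these counts were 80 and 51. Of the 11 deep-layer genes, 5 rose in the G1/G0 range, Zfpm2 with the 4 named above, and 11 of 11 were positive with a median of 0.47. In the S to M range Sox5, Nfia and Nfib rose, with a list median of 0.30. Of the 8 upper-layer genes, Cux1 fell in the G1/G0 range, and 0 were called in the S to M range. Sema3c fell in the G1/G0 range by 0.73 ± 0.11 on the log2 scale (edgeR, adjusted p = 0.00203). In the S to M range it differed by -0.40 ± 0.14 (edgeR, adjusted p = 0.320). Cdkn1c rose in the G1/G0 range, with 0.64 ± 0.13 there and 0.44 ± 0.18 in the S to M range, where it was not called. The difference between the ranges was not tested, and the S to M range held fewer nuclei.

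Reads of overlapping genes may be mixed, since whether the counting used strand is not given in the sources used here: Nfia overlaps E130114P18Rik, Rspo3 Gm48159, Lama2 Gm48084, Mfap4 Mapk7 and Eomes Gm33460, each on the opposite strand.

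Whether the knockout effect differed from that in neighbouring clusters was tested as an interaction over the same 8 samples. Against cluster 4, 78 of 11908 genes differed (0.655%), with a higher log2 fold change in cluster 5 for 0.529% and a lower one for 0.126%, and the count lay between 21 and 85 when 1 sample was left out, with the lowest value without wildtype replicate 1 or 4. Against cluster 1, 119 of 11343 differed (1.05%, with 0.538% higher and 0.511% lower), and the count lay between 49 and 122 in the same way, with the lowest values without wildtype replicates 4 (49) and 1 (55) and knockout replicate 2 (74). Pantr1, a long noncoding RNA gene of the same region as Pantr2 (chromosome 1, 42590782 to 42694842), lay in cluster 5 at 1166, 987, 911 and 1269.9 CPM in the wildtype and at 727, 742, 771 and 844 CPM in the knockout samples. The groups did not overlap (edgeR, adjusted p = 0.0194), and the other 9 protein-coding genes listed for the locus and the study gave 0 calls. Long noncoding genes nearby are not on that list, and 2 of them, named after their values were seen, were called. Gm20646, on the plus strand from 42694925, lies beside the start of Pantr1, which runs on the minus strand from 42694842. Gm20646 rose from 19.4 ± 1.91 to 62.2 ± 3.79 CPM, by 1.67 ± 0.11 in log2 units (edgeR, adjusted p = 9.67e-07). Gm28175, from 42261855 to 42304412, fell from 177 ± 27.5 to 103 ± 27.2 CPM (edgeR, adjusted p = 0.0180). The fall of Pantr1 in cluster 5, by 0.49 ± 0.10 on the log2 scale, was larger than in cluster 4 by a difference of -0.49 ± 0.09 and smaller than in cluster 1 by 0.45 ± 0.07, with interaction edgeR-adjusted p-values of 0.0174 and 0.00355. The fall within cluster 5 was not called when wildtype replicate 1 or 4, or knockout replicate 2 or 3, was left out, and the p then reached 0.0721. Gm29260 fell less in cluster 5 than in cluster 1, by 0.52 ± 0.11.

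Of 11 deep-layer genes, Nfia, Sox5, Zfpm2 and Foxp2 had a smaller log2 fold change in cluster 5 than in cluster 1, and 0 a larger one. The difference was -0.46 ± 0.05 for Nfia and -0.62 ± 0.14 for Sox5, with interaction edgeR-adjusted p-values of 4.36e-04 and 0.0394. Zfpm2 differed by -0.65 ± 0.13 against cluster 1 and by 0.67 ± 0.11 against cluster 4. For Nfia and Sox5 the difference from cluster 4 did not pass, at 0.10 ± 0.07 and 0.15 ± 0.12. For Tcf7l2 the difference from cluster 1 was -0.86 ± 0.15 and for Rspo3 0.97 ± 0.14, with log2 fold changes in cluster 1 of 0.11 and -0.04. Slc17a6, not called in cluster 5, differed from cluster 1 by 0.49 ± 0.10, and it fell in cluster 1 by 0.42 ± 0.08 on the log2 scale. Slc7a11 and Qrfpr rose more in cluster 5 than in cluster 4, by 2.14 ± 0.46 and 4.73 ± 0.62.

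**Figure D5:**
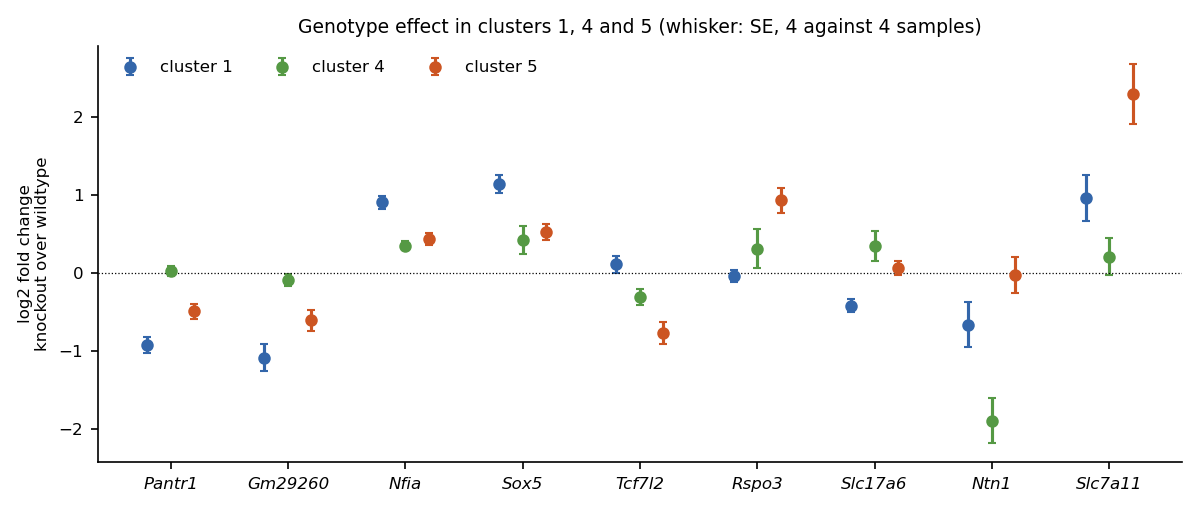
Log2 fold change of knockout over wildtype (y axis, whiskers are SE) for 9 genes (x axis) in clusters 1, 4 and 5. Each gene shown passed the test of the difference between cluster 5 and at least 1 of the others; Pantr1 lies at -0.92, 0.02 and -0.49 in clusters 1, 4 and 5.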

How the data were processed

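The authors deposited, per the file headers, whole-number UMI counts per gene and nucleus with no normalization, and for each nucleus its cluster, scores for doublets and an angle in the cell cycle, each used as deposited. The submitters' processing notes name kallisto, bustools and mm10; per the labels' protocols the libraries are 10x 3′ version 2. The table holds 14166 genes, and 14162 IDs were found in GENCODE M21 (GRCm38), from which positions are taken, since 13810 starts in the deposited table differ from it.

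Counts of cluster 5 were summed per sample and fitted with edgeR 4.0.16 (R 4.3.3): TMM, filterByExpr, glmQLFit and glmQLFTest with genotype only, Benjamini-Hochberg adjusted over all genes tested. CPM in the genotype comparison use TMM factors, and those across clusters and list sums do not. SEs come from the F statistic. Differences between clusters were fitted on 16 sums with sample as a block. Nuclei were not filtered further. The deposited hybrid scores were used to leave out likely doublets in 1 alternative. In simulated counts with 200 genes changed by a log2 value of 1, 86% were recovered in cluster 5 (10595 genes), 82.5% in its G1/G0 range (9450), 83.5% in its S to M range (8026), and 73.5% and 72.5% of differences from clusters 4 and 1, simulated on 10595 genes with 18 and 10 false calls, fewer genes than those tests used.

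Named genes are the 5 markers, the 10 leading genes (20 CPM or more), the 12 largest changes in each direction among called genes with 10 or more UMIs per sample and no overlap, called list members, genes of the locus and the 4 largest interactions in each test. Fezf2, Zfpm2, Hs3st4, Ldb2, Foxp2, Cux1, Cux2, Pou3f1, Rnd2, Nrp1, Gm20646, Gm28175, Hbb-bs, Tpm3, the genes given by cell cycle angle and the identity examples were chosen after their values were seen. The members and lists were chosen with earlier results of these data known. Copies were searched with blastn 2.17.0 among GENCODE M21 transcripts. Alternatives were DESeq2 1.42.0, DESeq2 size factors, no filter, a replicate block, an Xist covariate, fewer nuclei or genes and leaving out each sample.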

Additional observations from a re-analysis of the deposited data

Results flagged for a closer look

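In 142 groups of 4 samples looked at, 8 held 1 sample far from the other 3, and chance alone marks about 1 group in 20. Knockout replicate 1 was the high one for Gm42743 (12.6 CPM, others up to 7.71), A430010J10Rik (15.6 CPM, others up to 8.15) and Stxbp6 (61.6 CPM, others up to 54.2). Wildtype replicate 3 was high for Gm6209 (2.25 CPM) and Tmem178 (327 CPM). Wildtype replicate 1 was high for Tgfbrap1 (25.1 CPM) and low for Uxs1 (75.3 CPM), and held the largest share of nuclei with both Eomes and Unc5d, 11.9%.

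The knockout effect in cluster 5 differed from that in another cluster, by the interaction test of edgeR, for 18 named genes. Against cluster 4 the differences in log2 fold change were 4.73 for Qrfpr, 2.58 for Otx2os1, 2.14 for Slc7a11, 1.88 for Ntn1, 1.32 for Gm5089, -0.49 for Pantr1, -1.12 for Shisa9 and -1.46 for Chd1l. Ntn1, the netrin gene, fell in cluster 4 by 1.90 on the log2 scale and had -0.03 in cluster 5. Against cluster 1 they were 1.57 for AI593442, 0.97 for Rspo3, 0.52 for Gm29260, 0.49 for Slc17a6, 0.45 for Pantr1, -0.46 for Nfia, -0.62 for Sox5, -0.86 for Tcf7l2, -1.17 for Stac2, -1.57 for Stxbp6, -1.73 for Dpp10 and -3.42 for Gm5089.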

How the results depend on the processing

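The count of 188 called genes was 185 with DESeq2 size factors, 201 with DESeq2, 206 without the filter, 204 with Xist as a covariate, 201 without likely doublets, 189 without mitochondrial genes, and 101 to 189 (lowest without wildtype replicate 4) when 1 sample was left out. With the 5 samples that hold Xist UMIs, an alternative chosen after seeing the data, it was 324, with 135 of the 188 among them. A replicate block gave 190, of which 151 were among the 188. In cluster 5 the deviations of same-numbered samples correlated at 0.245, 0.111, -0.02 and -0.02, so the numbers were not taken to pair the samples, and not every sample correlated best with its own number. The block gave 207 genes in the G1/G0 range and 103 in the S to M range. Leaving out 1 sample gave 80 to 151 genes in the G1/G0 range of 153 and 51 to 99 in the S to M range of 80, where no filter gave 140. The samples whose loss moved these counts by over 1.5 times were wildtype replicates 1 (99) and 4 (80) in the G1/G0 range, and wildtype replicate 4 (51) and knockout replicate 2 (52) in the S to M range. Differences from cluster 4 numbered 21 to 85 and from cluster 1 49 to 122 when 1 sample was left out, and the first count was 39 to 49 when replicate 2 or 3 of either genotype was missing. Ranking leading genes by the highest of the other clusters kept 3 of the 10. Of 44 named called genes, 31 kept their call under every alternative planned; of 23 not called, 1 was called under some, Eya4; Rnd2, Zfpm2, Fezf2, Nrp1, Cux2 and Pou3f1, outside these 67, were too. None of the 44 changed direction. List medians near 0 did: synapse genes from -0.05 to 0.05 and 0.04 without knockout replicates 2 and 3, cell cycle exit genes from 0.08 to -0.05 without likely doublets, and the G2/M, apical progenitor and locus lists by under 0.1. With the samples holding Xist UMIs the vascular list went from -0.27 to 0.12, and Ldb2, positive in all samples together, was called lower. Depth limits genes under about 10 CPM and any small change of Eomes and Neurog2.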

Other observations

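Of the 188 genes called in cluster 5, 121 were called in cluster 1 as well (64.4% of the cluster 5 genes and 21.5% of the cluster 1 genes) and 83 in cluster 4 (44.1% and 16.2%). Calls of all 7 clusters come from the same 8 samples. In none of the other 6 clusters were 24 of the 188 called, and in all 6 were 23.

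Called genes were unevenly placed. On chromosome 3, 31 of 517 genes tested were called (6.00%), on chromosome 14, 21 of 364 (5.77%), and on chromosome 1, 22 of 650 (3.38%), against 1.77% over all genes. Of the 24 genes with the largest changes, Gm42743, Gm6209, Qrfpr, Slc7a11, Chd1l, S100a10 and Egfem1 lie on chromosome 3, and Dnajc22, Gm49450 and 4930578M01Rik lie on chromosome 15. No test was run on this placement.

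Within cluster 5, ribosomal protein genes were lower in the S to M than in the G1/G0 angle range in all 8 samples for 41 of 75 genes, against 351 of 14075 genes in all. Their summed wildtype level was 18259 against 21986 CPM.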
